A study of Mus musculus with 6 samples.

Results

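The genes that copy DNA and that are switched on for S phase were followed in RNA-seq of MEFs, mouse embryonic fibroblasts in culture, which had been isolated from WT or *Aff3ir-ORF2-/-* mice. The comparison asked which transcripts differ when ORF2 is absent. The list held 49 genes, chosen by symbol for their role in replication origins, the helicase, the polymerases, the sliding clamp, nucleotide supply and S phase, out of 17092 genes in the table, and each of them was found in it. All 49 passed the filter on low counts, and the lowest count of any of them in any library was 27, so that none was kept only because it was high in 1 genotype. There were 3 libraries of each genotype, with totals between 17435133 and 18252330 estimated counts. The *Aff3ir-ORF2-/-* mice came from Cas9 editing with guides against the ORF2 locus of *Aff3ir*, a gene nested in *Aff3*, and heterozygous offspring of the founders were intercrossed, so that the loss is in every cell of the animal, while the WT mice are unedited. The sources used here give no treatment of these cells and no age or sex of the embryos. The authors give a range of passages for the MEFs of all their experiments, but not the passage of each library. The sources also do not say whether the replicates of a genotype came from separate embryos or cultures. The p-values therefore measure only the spread between these libraries.

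Before S phase, the origin recognition complex, Cdc6 and Cdt1 load the ring of Mcm2 to Mcm7 onto DNA, and Cdc45 and the GINS complex then turn the ring into a working helicase. DNA polymerase alpha with primase starts each strand, polymerases delta and epsilon extend it on the clamp Pcna, and Fen1 and Lig1 join the short fragments of the lagging strand. Many of these genes are transcribed under the control of E2F factors and are low in fibroblasts that have left the cell cycle, which makes them a common readout of proliferation in MEF cultures.

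*Aff3ir* itself was not analysed here, so the genotype was not checked by the targeted transcript, and *Aff3*, whose reads could be shared with it, was counted 406, 406 and 418 times in WT and 229, 186 and 209 times in *Aff3ir-ORF2-/-* libraries. Markers of other cells were also read, and those of macrophages moved with the genotype. The summed level of 20 macrophage markers was 22.2 to 25.9 CPM (counts relative to the total of the library, scaled by TMM) in WT and 1444 to 2465 CPM in *Aff3ir-ORF2-/-* libraries, and 19 of the 20 were higher past both thresholds, an edgeR adjusted p of 0.05 and a change of 1.5-fold. *C1qa*, *C1qb* and *Aif1* were at 0 in all WT libraries, and *Aif1*, with 1, 3 and 5 counts in *Aff3ir-ORF2-/-* libraries, was too low to test. The sum was 1444, 1999 and 2465 CPM in *Aff3ir-ORF2-/-* replicates 1, 2 and 3, and *Lyz2* alone was at 794.6, 1086 and 1373 CPM. The order of the replicates differed between markers, with *Cd68* at 44.7, 61.8 and 80.7 CPM and *Adgre1* at 30.3, 50.2 and 47.95 CPM. The replication genes were lowest in replicate 2. Of 12 fibroblast markers, 3 were higher and 0 lower past both thresholds, and their sum was 28490 to 28590 CPM in WT and 24980 to 31080 CPM in *Aff3ir-ORF2-/-* libraries. Of 5 endothelial markers in the table, 2 were higher and 1 lower (sum 6.96 to 7.38 against 9.88 to 14.8 CPM), and the 2 of 6 epithelial markers with enough counts passed neither way (sum of the 6, 22.1 to 22.8 against 12.6 to 24.9 CPM). The part of these cells in the decrease of the replication genes was not tested.

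Replication genes were lower in *Aff3ir-ORF2-/-* than in WT MEFs almost throughout the list. Of the 49 genes, 38 were lower and 1, *E2f2*, was higher past an adjusted p of 0.05 and a change of at least 1.5-fold, while over all 13075 tested genes 7.32% were lower and 14.3% were higher by the same thresholds. By the adjusted p alone, 47 were lower and 1 was higher, against 27.6% and 29.4% of all tested genes. Each *Aff3ir-ORF2-/-* library was below each WT library for 47 of the 49 genes and above for 1, where this held for 32.7% and 33.3% of all tested genes. The median log2 fold change was -0.87 over the list and 0.01 over all tested genes. The summed level of the 49 genes was 3580, 3586 and 3632 CPM in WT replicates 1, 2 and 3, and 2045, 1681 and 2170 CPM in *Aff3ir-ORF2-/-* replicates 1, 2 and 3. In RNA from whole cultures, fewer cells in S phase and less of each RNA per cell cannot be told apart, and the macrophage marker sum given above rose in the same *Aff3ir-ORF2-/-* libraries.

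**Figure D1:**
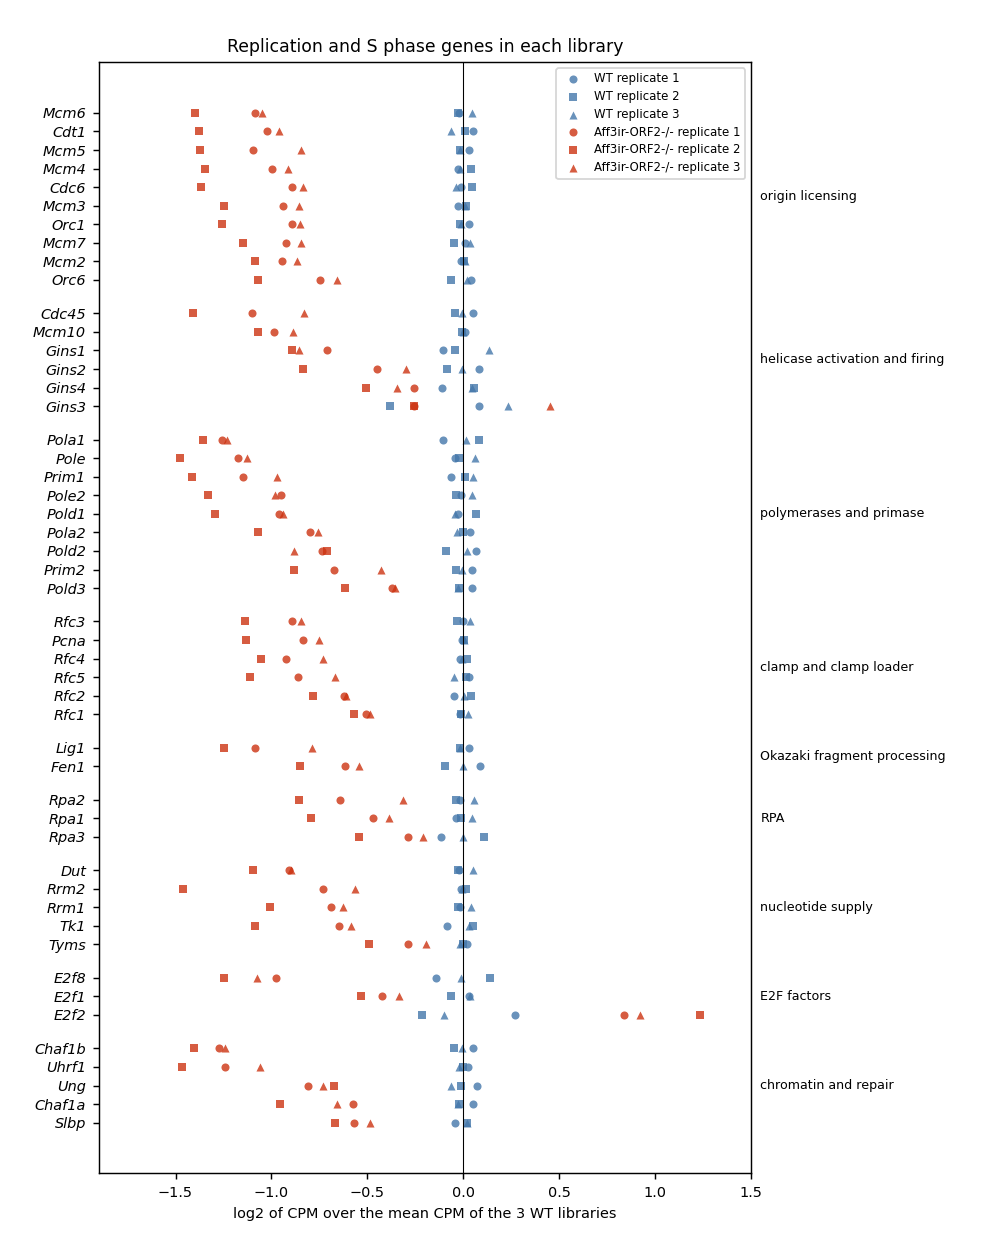
Level of each of the 49 genes in each library, as the log2 of its CPM over the mean CPM of the 3 WT libraries, with genes grouped by role. Blue marks are WT and red marks *Aff3ir-ORF2-/-* libraries, and the shape gives the replicate number. The red marks lie to the left of all blue marks for 47 genes, to the right for *E2f2*, and overlap them for *Gins3*.

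The promoters of these genes are shown because E2F factors are known to act on them and because the genes moved together. RefSeq windows of 300 bases, from 250 before to 50 after the transcription start in GRCm38.p6, were found for 42 of the 49 genes. The windows were searched on both strands for 4 spellings of the E2F letters, TTTCCCGC, TTTGGCGC, TTTCGCGC and TTTGCCGC, and for CCAAT, the letters that the factor NF-Y binds. Matches may overlap each other, and a gene was counted once. At least 1 of the 4 spellings was in a window of 16 of the 42 genes, or 38.1%. It was in 4.70% of the 10425 tested genes with a window, and in 2.26% of all 32851 windows. CCAAT was in windows of 26 of the 42 genes (61.9%) and of 43.41% of the tested genes. In the stretches below, given 5′ to 3′ on the strand of the gene, capitals mark the E2F letters, printed as their reverse complement where they lie on the other strand. The first 5 are the genes with the largest decrease among those with the letters before the start, and *Gins3* is a gene with the letters whose level did not pass the test.
*Pola1* (chrX:93632246-93632333, minus strand): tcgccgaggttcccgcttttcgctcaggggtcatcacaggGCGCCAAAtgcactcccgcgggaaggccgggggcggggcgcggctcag
*Uhrf1* (chr17:56304088-56304175, plus strand): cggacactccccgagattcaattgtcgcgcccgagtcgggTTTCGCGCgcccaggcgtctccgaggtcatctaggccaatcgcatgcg
*Mcm6* (chr1:128359706-128359792, minus strand): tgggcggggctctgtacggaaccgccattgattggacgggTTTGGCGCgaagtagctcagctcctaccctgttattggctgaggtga
*Mcm5* (chr8:75109320-75109407, plus strand): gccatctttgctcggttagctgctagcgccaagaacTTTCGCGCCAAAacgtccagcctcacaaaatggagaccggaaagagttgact
*Cdc6* (chr11:98907973-98908060, plus strand): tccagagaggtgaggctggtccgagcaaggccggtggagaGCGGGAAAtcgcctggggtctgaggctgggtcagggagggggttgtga
*Gins3* (chr8:95633478-95633558, plus strand): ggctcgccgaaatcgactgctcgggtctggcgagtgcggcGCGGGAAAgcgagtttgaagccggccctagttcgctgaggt
The capitals of *Mcm5* hold 2 overlapping matches, 1 on each strand, and the window of *Mcm6* holds 3, of which 1 is shown. The letters were found in genes that fell and in genes that did not. Of the 16 genes with them, 13 were lower past both thresholds, *E2f2* was higher, and *Gins3* and *Pold3* passed neither way. Of the 26 matched genes without them, 20 were lower past both thresholds. The median log2 fold change was -1.02 with the letters and -0.79 without, and the ranges of both groups, -1.28 to 1.01 and -1.30 to -0.32, overlapped. A match describes the letters in the window and no binding was measured.

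**Figure D2:**
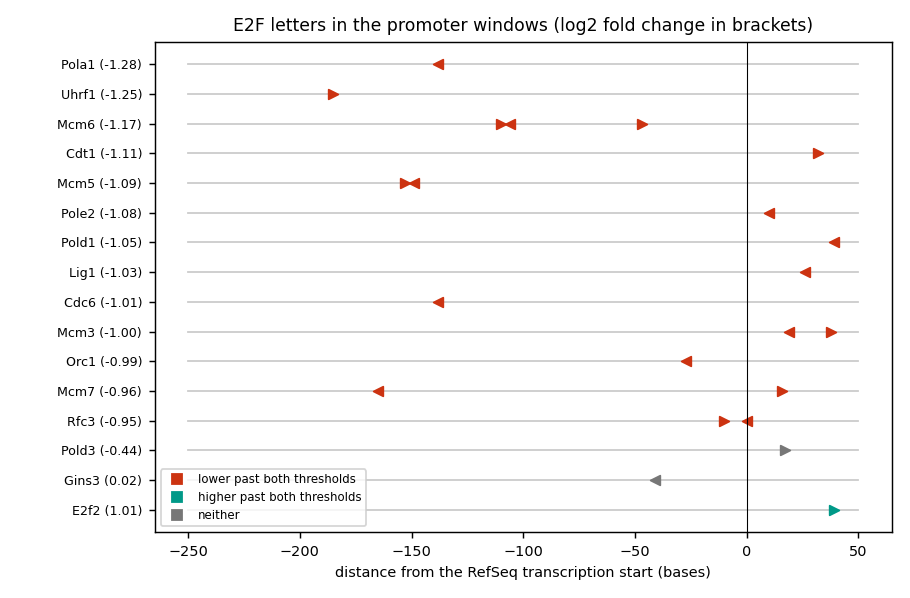
Position of the E2F letters in the promoter windows that hold them, in bases from the RefSeq start, with genes ordered by log2 fold change (in brackets). A mark pointing right is on the strand of the gene and a mark pointing left on the other, and colour gives the call. Genes with the letters range from *Pola1* at -1.28 to *E2f2* at 1.01.

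The 10 licensing genes on the list fell together. All of them, *Orc1*, *Orc6*, *Cdc6*, *Cdt1* and *Mcm2* to *Mcm7*, were lower past both thresholds, with log2 fold changes from -1.17 to -0.82. *Mcm6* (gene ID 17219), a subunit of the helicase ring and the licensing gene with the most counts, was at 229.7, 228 and 240.5 CPM in WT replicates 1, 2 and 3 and at 109.8, 88.3 and 112 CPM in *Aff3ir-ORF2-/-* replicates 1, 2 and 3. All 3 *Aff3ir-ORF2-/-* libraries were far below the WT libraries, and the log2 fold change was -1.17, with its standard error (SE) at 0.08 and an adjusted p of 1.14e-05 by edgeR's quasi-likelihood test. *Mcm2* (gene ID 17216), which had the lowest adjusted p of the licensing genes, was at 148, 150.1 and 151 CPM in WT and 77.9, 70.5 and 81.96 CPM in *Aff3ir-ORF2-/-* libraries, or 149.7 ± 1.27 against 76.8 ± 5.82 CPM (mean ± SD, n = 3 each). Its log2 fold change was -0.96 (SE 0.06) at an edgeR adjusted p of 4.36e-06. *Mcm4* was at 164, 173 and 166 CPM in WT and 84.01, 65.96 and 88.9 CPM in *Aff3ir-ORF2-/-* libraries. *Mcm5* was at 97.96, 94.8 and 94.96 CPM in WT and 44.9, 37.03 and 53.4 CPM in *Aff3ir-ORF2-/-* libraries. The 6 ring subunits had log2 fold changes from -1.17 for *Mcm6* to -0.96 for *Mcm2*, with *Mcm3* at -1.005 and *Mcm7* at -0.96. Per kilobase of the longest GENCODE M21 transcript, their mean levels in WT lay between 28.4 CPM (*Mcm5*) and 53.5 CPM (*Mcm6*).

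The loaders of the ring fell with it. *Cdt1* (gene ID 67177), which brings the ring to the origin, was at 41.1, 40.05 and 38.01 CPM in WT and 19.6, 15.3 and 20.4 CPM in *Aff3ir-ORF2-/-* libraries, a log2 fold change of -1.11 (SE 0.10, edgeR adjusted p = 3.43e-05). *Cdc6*, the ATPase that loads the ring together with it, had a log2 fold change of -1.01 (SE 0.12). In the origin recognition complex, the values of the subunits were spread out. *Orc1*, the subunit that is made and destroyed with each cycle, fell by 0.99 on the log2 scale and *Orc6* by 0.82 (edgeR adjusted p = 7.59e-05 and 1.48e-04). Of the subunits outside the list, *Orc2* was at -0.40 and *Orc3* at -0.22 (edgeR adjusted p = 0.00323 and 0.00365), and *Orc4* and *Orc5* at 0.02 and -0.03, with adjusted p of 0.756 and 0.789 in the same edgeR test. The ratio of *Orc1* to *Orc4* counts within a library was 0.473, 0.479 and 0.467 in WT and 0.237, 0.209 and 0.255 in *Aff3ir-ORF2-/-* libraries. The groups did not overlap, and the log2 ratio differed by -1.02 (two-sided exact permutation p = 0.1, the smallest that 3 against 3 allow, and 0.125 adjusted over 5 ratios chosen after the values were seen).

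Genes that turn the loaded ring into a helicase fell in part. Of 6, *Cdc45*, *Mcm10* and *Gins1* were lower past both thresholds. *Cdc45* (gene ID 12544), which rides with the ring, was at 34.7, 32.5 and 33.4 CPM in WT and 15.7, 12.6 and 18.9 CPM in *Aff3ir-ORF2-/-* libraries, a log2 fold change of -1.09 (SE 0.12, edgeR adjusted p = 1.05e-04). *Mcm10*, a factor that helps the helicase start, was at 28.8, 28.5 and 28.6 CPM in WT and 14.4, 13.6 and 15.5 CPM in *Aff3ir-ORF2-/-* libraries, with little spread in either genotype (-0.98, SE 0.07). The 4 subunits of GINS, which sit in 1 complex, ranged from -0.82 to 0.02 on the log2 scale. *Gins1* was at -0.82, *Gins2* at -0.51 and *Gins4* at -0.36 on the log2 scale. *Gins2* and *Gins4* passed the adjusted p but not the fold threshold (edgeR adjusted p = 0.0065 and 0.00441). *Gins4*, the gene of this role with the most counts, was at 30.5, 34.3 and 34 CPM in WT and 27.6, 23.2 and 25.9 CPM in *Aff3ir-ORF2-/-* libraries. *Gins3* (gene ID 78833) was the member whose genotypes overlapped, at 6.03, 4.38 and 6.70 CPM in WT and 4.78, 4.78 and 7.79 CPM in *Aff3ir-ORF2-/-* libraries. On the log2 scale the difference was 0.02 with a standard error of 0.23 (edgeR adjusted p = 0.945), the largest error in the list, and ranged from -0.26 to 0.15 over the alternatives.

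The polymerases held several of the largest decreases. *Pola1* (gene ID 18968), the catalytic subunit of polymerase alpha, was at 72.5, 82.5 and 78.9 CPM in WT and 32.6, 30.4 and 33.2 CPM in *Aff3ir-ORF2-/-* libraries, or 77.97 ± 5.08 against 32.1 ± 1.45 (mean ± SD, n = 3 each), with a log2 fold change of -1.28 (SE 0.06, edgeR adjusted p = 2.52e-06). *Pole* (gene ID 18973), the catalytic subunit of polymerase epsilon, was at 96.04, 97.4 and 103 CPM in WT and 43.8, 35.5 and 45.2 CPM in *Aff3ir-ORF2-/-* libraries, a log2 fold change of -1.25 (SE 0.09, edgeR adjusted p = 8.2e-06). For both genes each *Aff3ir-ORF2-/-* library held less than each WT library by a wide margin. *Prim1*, the catalytic subunit of primase, was at 33.8, 35.6 and 36.6 CPM in WT and 15.9, 13.3 and 18.04 CPM in *Aff3ir-ORF2-/-* libraries (-1.17, SE 0.10). *Pole2*, the second subunit of polymerase epsilon, was at 13.7, 13.4 and 14.2 CPM in WT and 7.14, 5.47 and 6.97 CPM in *Aff3ir-ORF2-/-* libraries. *Pold1*, the catalytic subunit of polymerase delta, was at 56.1, 59.7 and 55.5 CPM in WT and 29.4, 23.3 and 29.8 CPM in *Aff3ir-ORF2-/-* libraries. Their log2 fold changes were -1.08 and -1.05. *Pola2* and *Prim2*, partners of *Pola1* and *Prim1*, fell by 0.87 and 0.65 on the log2 scale, *Prim2* past both thresholds in 13 of the 14 other fits. Within polymerase delta the subunits ranged from -1.05 for *Pold1* through -0.77 for *Pold2* and -0.44 for *Pold3* to 0.32 for *Pold4*, a small subunit outside the list (edgeR adjusted p of *Pold4* = 0.0175). *Pold3* passed the adjusted p (edgeR 0.00164) but not the fold threshold. The ratio of *Pold1* to *Pold4* counts was 3.93, 4.81 and 4.49 in WT and 1.68, 1.41 and 2.02 in *Aff3ir-ORF2-/-* libraries. The log2 difference was -1.39 (two-sided exact permutation p = 0.1, the smallest possible, adjusted 0.125, for a ratio chosen after its values were seen).

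The clamp and 4 of the 5 loader subunits fell past both thresholds. *Pcna* (gene ID 18538), the ring that holds polymerases on DNA, was at 205, 206 and 206 CPM in WT and 115, 93.8 and 122 CPM in *Aff3ir-ORF2-/-* libraries. The coefficient of variation was 0.397% in WT and 13.38% in *Aff3ir-ORF2-/-* libraries, and *Pcna* changed by -0.90 on the log2 scale (SE 0.09, edgeR adjusted p = 4.47e-05). At 136 CPM per kilobase in WT, *Pcna* had the highest level of the 49 genes per transcript length, followed by *Rrm2* at 103 and *Rrm1* at 64.4 CPM per kilobase, and *E2f2* had the lowest at 0.376. Of the loader subunits, *Rfc2* to *Rfc5* were lower past both thresholds, from -0.95 (*Rfc3*) to -0.67 (*Rfc2*). *Rfc1*, the large subunit, was at 97.7, 98.01 and 100.2 CPM in WT and 69.3, 66.5 and 70.3 CPM in *Aff3ir-ORF2-/-* libraries. It had the lowest adjusted p of this role (2.3e-05 by edgeR) at a log2 fold change of -0.52, which missed the fold threshold. The ratio of *Rfc3* to *Rfc1* counts was 0.220, 0.215 and 0.220 in WT and 0.167, 0.147 and 0.170 in *Aff3ir-ORF2-/-* libraries, without overlap. The log2 difference was -0.44 (two-sided exact permutation p = 0.1, the smallest possible, adjusted 0.125, for a ratio chosen after its values were seen).

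Both genes that finish lagging-strand fragments fell. *Lig1* (gene ID 16881), the ligase that seals them, was at 83.2, 80.5 and 80.5 CPM in WT and 38.4, 34.4 and 47.1 CPM in *Aff3ir-ORF2-/-* libraries, a log2 fold change of -1.03 (SE 0.10, edgeR adjusted p = 4.86e-05). *Fen1*, the nuclease that trims them, fell by 0.67 on the log2 scale (SE 0.09). The subunits of RPA, which coats unwound DNA, had log2 fold changes from -0.59 to -0.34. *Rpa1* (gene ID 68275), the largest subunit, was at 189.8, 194 and 201 CPM in WT and 141, 112 and 149 CPM in *Aff3ir-ORF2-/-* libraries. The genotypes did not overlap, and the log2 fold change of -0.54 (edgeR adjusted p = 0.00112) was under the fold threshold. *Rpa2* passed both thresholds narrowly at -0.59 (SE 0.12), and did so in 8 of the 14 other fits. *Rpa3* was at -0.34 (edgeR adjusted p = 0.0264, and up to 0.102 when WT replicate 2 was left out).

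Among the enzymes that supply nucleotides, 4 of 5 were lower past both thresholds. *Dut* (gene ID 110074), which removes dUTP and so keeps uracil out of DNA, was at 56.2, 56.1 and 59.2 CPM in WT and 30.4, 26.7 and 30.6 CPM in *Aff3ir-ORF2-/-* libraries, a log2 fold change of -0.97 (SE 0.07, edgeR adjusted p = 8e-06). *Rrm1* (gene ID 20133), the large subunit of ribonucleotide reductase and the member with the most counts, was at 349, 346 and 362 CPM in WT and 219, 175 and 229 CPM in *Aff3ir-ORF2-/-* libraries, a log2 fold change of -0.77 (SE 0.09, edgeR adjusted p = 1.29e-04). *Rrm2*, its S phase partner, was the gene in which replicate 2 stood furthest below the other *Aff3ir-ORF2-/-* libraries, at 136, 82.01 and 153 CPM against 223, 228 and 225 CPM in WT. The fitted log2 fold change was -0.87 with a standard error of 0.18 (edgeR adjusted p = 0.00348). *Rrm2b*, the other small subunit of the enzyme and a p53 target, is outside the list and had a log2 fold change of 0.12 (edgeR adjusted p = 0.222). The ratio of *Rrm2* to *Rrm2b* counts was 14.4, 12.3 and 12.96 in WT and 7.26, 4.49 and 8.10 in *Aff3ir-ORF2-/-* libraries. The log2 difference was -1.04 (two-sided exact permutation p = 0.1, the smallest possible, adjusted 0.125, for a ratio chosen after its values were seen). *Tk1*, a thymidine kinase made in S phase, fell by 0.76 on the log2 scale. *Tyms*, which makes thymidylate, was at 40.5, 39.99 and 39.5 CPM in WT and 32.8, 28.4 and 35.04 CPM in *Aff3ir-ORF2-/-* libraries. Its decrease of -0.32 (edgeR adjusted p = 0.00689) was the smallest of the group and under the fold threshold.

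The E2F factors on the list went in both directions. *E2f8* (gene ID 108961), a repressor that is itself made in S phase, was at 32.1, 39.1 and 35.1 CPM in WT and 18.01, 14.9 and 16.8 CPM in *Aff3ir-ORF2-/-* libraries, a log2 fold change of -1.09 (SE 0.10, edgeR adjusted p = 2.85e-05). *E2f1*, an activator of S phase genes, was at 48.8, 45.7 and 49 CPM in WT and 35.6, 33.1 and 37.98 CPM in *Aff3ir-ORF2-/-* libraries, and its decrease of -0.43 (edgeR adjusted p = 5.87e-04) was under the fold threshold. *E2f2* (gene ID 242705), another activator, was scarce, with 37, 27 and 29 counts in WT and 58, 78 and 62 counts in *Aff3ir-ORF2-/-* libraries. This was 2.15, 1.54 and 1.66 CPM against 3.19, 4.19 and 3.38 CPM, with each *Aff3ir-ORF2-/-* library above each WT library. Its log2 fold change was 1.01 (SE 0.20, edgeR adjusted p = 0.00261), and it stayed between 0.88 and 1.16 and past both thresholds in the 14 other fits.

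Genes that rebuild chromatin or repair uracil behind the fork ended the list. *Chaf1b* (gene ID 110749), a subunit of the chromatin assembly factor that places new histones, had the largest decrease of the 49 genes. It was at 48.5, 45.2 and 46.6 CPM in WT and 19.3, 17.7 and 19.8 CPM in *Aff3ir-ORF2-/-* libraries, a log2 fold change of -1.30 (SE 0.06, edgeR adjusted p = 2.42e-06). *Uhrf1* (gene ID 18140), which guides maintenance of DNA methylation, was at 149, 146 and 144 CPM in WT and 61.9, 53.03 and 70.1 CPM in *Aff3ir-ORF2-/-* libraries, a log2 fold change of -1.25 (SE 0.09, edgeR adjusted p = 9.19e-06). Both were clear of the WT range in every *Aff3ir-ORF2-/-* library. *Chaf1a*, the partner of *Chaf1b*, fell by 0.72 and *Ung*, which cuts uracil out of DNA, by 0.74 on the log2 scale. *Slbp*, which binds the stem-loop of histone messengers, was at -0.57 (edgeR adjusted p = 6.29e-05), just short of the fold threshold, which it passed in 3 of the 14 other fits.

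**Figure D3:**
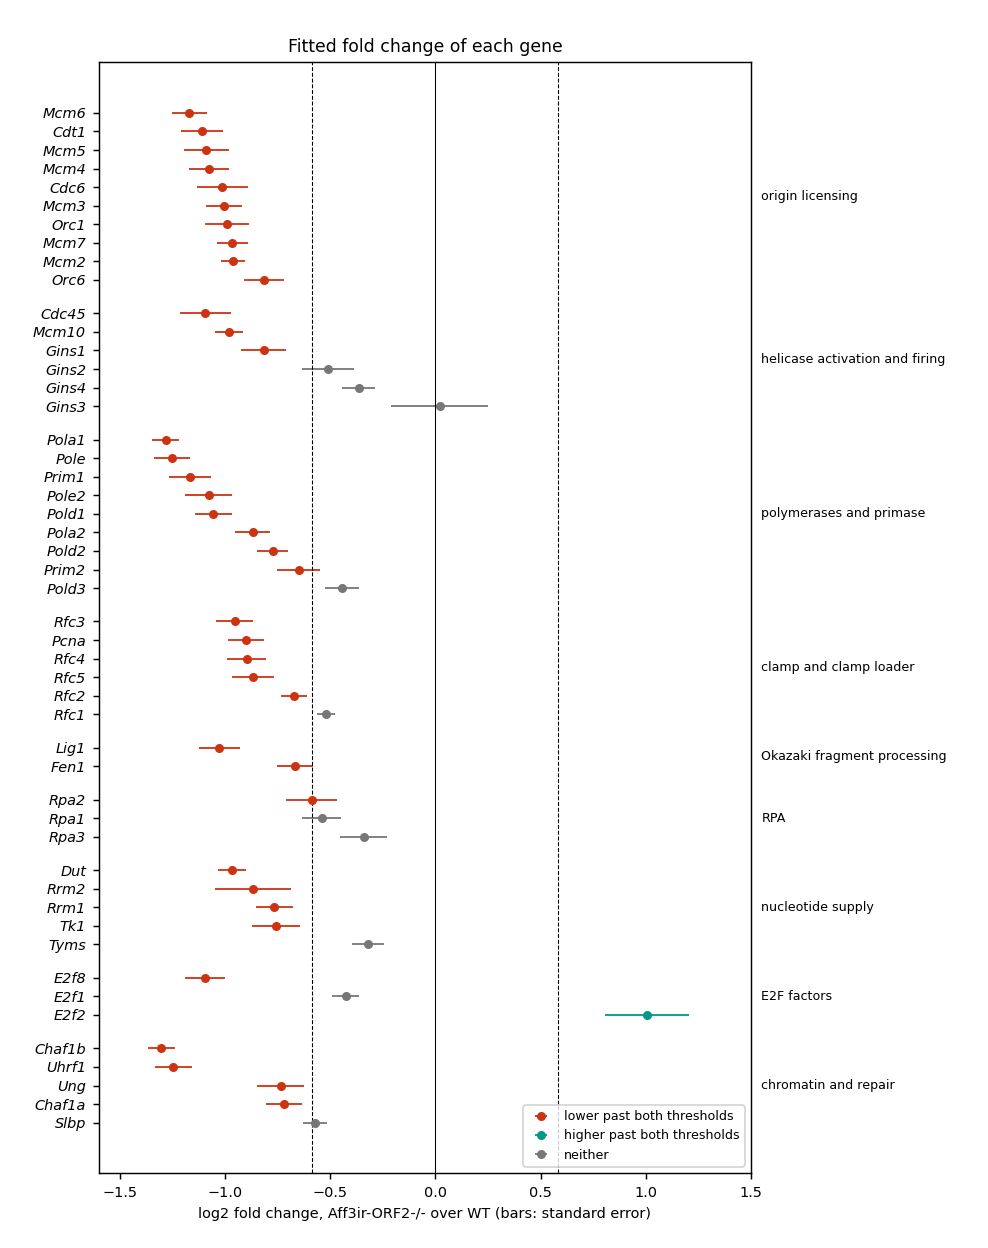
Log2 fold change of *Aff3ir-ORF2-/-* over WT MEFs for each of the 49 genes, with its standard error, grouped by role. Dashed lines mark a 1.5-fold change, red points are lower and the green point is higher past both thresholds, and grey points passed at most the adjusted p. The licensing genes lie together between -1.17 and -0.82, while GINS and the E2F factors are spread out.

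The *Aff3ir-ORF2-/-* libraries differed among themselves in these genes, and did so in a shared order. Replicate 2 was the lowest of the 3 for 46 of the 49 genes, which was the case for 40.8% of all tested genes. Replicate 2 also stood apart over the whole table, where the chi-square per degree of freedom of a pair of libraries was 14.9 and 18.9 for its pairs with replicates 1 and 3 and 5.56 for replicates 1 and 3. The fibroblast markers were highest in it, with a median deviation of 0.30 on the log2 scale beside -0.07 and -0.12 in replicates 1 and 3, and the part of this in the order of the replication genes was not tested. The order replicate 2, replicate 1, replicate 3 was found for 41 of the 49 genes and for 21.99% of all tested genes. Relative to the mean of its genotype, the median deviation of the 49 genes was 0.06, -0.21 and 0.13 on the log2 scale in *Aff3ir-ORF2-/-* replicates 1, 2 and 3, and between -0.01 and 0.00 in the WT libraries. The coefficient of variation of a gene was 3.05% in WT and 13.2% in *Aff3ir-ORF2-/-* libraries at the median of the list. The 2 genotypes also differed in spread across all tested genes, with a biological coefficient of variation, the spread beyond counting noise, of 0.0185 in WT and 0.0996 in *Aff3ir-ORF2-/-* libraries. Without replicate 2, 36 of the 49 genes were lower past both thresholds and the median was -0.80, with the other 2 *Aff3ir-ORF2-/-* libraries below WT as well.

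Other genes of the same process were read from lists that hold no member. Over all tested genes, 7.32% were lower and 14.3% higher past both thresholds, and 27.6% and 29.4% by the adjusted p alone. Of 32 other replication factors, 14 were lower and 0 higher past both thresholds by edgeR (24 lower and 2 higher by the adjusted p alone), with a median log2 fold change of -0.50. *Recql4*, *Atad5* and *Mtbp*, which act in origin firing or unload the clamp, were at -1.26, -1.12 and -1.01. *Gmnn*, the inhibitor of *Cdt1*, also fell, by 0.90 on the log2 scale. The ratio of *Cdt1* to *Gmnn* counts was 1.66, 1.57 and 1.40 in WT and 1.45, 1.26 and 1.30 in *Aff3ir-ORF2-/-* libraries, which overlapped (log2 difference -0.21, two-sided exact permutation p = 0.2, adjusted 0.2). Of 25 other nucleotide supply genes, 8 were lower and 0 higher past both thresholds (17 lower and 1 higher by the adjusted p alone), with a median of -0.38. *Dctd*, which serves thymidylate supply, and *Dck*, which serves the salvage of deoxycytidine, were at -1.01 and -0.89. The purine synthesis genes *Atic*, *Gart*, *Paics*, *Impdh2* and *Impdh1* lay between -0.39 and -0.21, with *Ppat* at -0.65.

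Many checkpoint and fork protection genes fell as well. The shares over all tested genes were 7.32% lower and 14.3% higher past both thresholds, and 27.6% and 29.4% by the adjusted p alone. Of 26 S phase checkpoint and fork protection genes, 17 were lower and 0 higher past both thresholds (22 and 0 by the adjusted p alone), with a median of -0.81. *Dtl* (gene ID 76843), which directs destruction of Cdt1 in S phase, was at 50.8, 51.02 and 50.9 CPM in WT and 18.2, 17.2 and 19.6 CPM in *Aff3ir-ORF2-/-* libraries, a log2 fold change of -1.47 (SE 0.06, edgeR adjusted p = 1.36e-06). *Timeless* and *Clspn*, which guard the fork, were at -1.29 and -1.17, and *Bard1*, the partner of *Brca1*, at -1.56. Of 18 chromatin replication genes, 9 were lower and 0 higher past both thresholds (16 and 0 by the adjusted p alone), with a median of -0.58. *Dnmt1*, the maintenance methyltransferase that *Uhrf1* recruits, was at 319, 316 and 325 CPM in WT and 147, 131 and 155 CPM in *Aff3ir-ORF2-/-* libraries (-1.15, edgeR adjusted p = 3.12e-06). *Atad2* and *Nasp* were at -1.05 and -1.01.

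Regulators of the entry into S phase held genes that fell and a few that rose. Of 32 genes, 9 were lower and 3 higher past both thresholds, beside 7.32% and 14.3% of all tested genes. By the adjusted p alone 17 were lower and 8 higher, beside 27.6% and 29.4%, and the median was -0.28. The higher counts were no larger than the share over all tested genes. The cyclin genes *Ccne2*, *Ccne1* and *Ccna2* were at -1.08, -0.76 and -0.70, *E2f7* at -1.35, *Mybl2* at -1.33 and *Myc*, a growth regulator, at -1.32. The cyclin genes *Ccnd1*, *Ccnd2* and *Ccnd3* were at -0.37, 0.355 and 0.44, under the fold threshold. The 3 higher genes were *Cdkn2a*, *Cdkn2d* and *Cdkn1a*, which encode CDK inhibitors. Other CDK inhibitor genes of the list did not pass both thresholds, with *Cdkn2b* at 0.55, *Cdkn1b* at 0.22, *Cdkn2c* at -0.06 and *Cdkn1c* at -0.41 (edgeR adjusted p = 0.00147, 0.0372, 0.688 and 0.0092). *Cdkn2a* (gene ID 12578) was at 15.8, 14.7 and 13.7 CPM in WT and 35.2, 38.4 and 31.5 CPM in *Aff3ir-ORF2-/-* libraries, a log2 fold change of 1.25 (SE 0.09, edgeR adjusted p = 1.18e-05). The table gives 1 count for this locus, so its p16 and p19 transcripts are not separated. *Cdkn1a*, which encodes p21, was at 286, 280.4 and 279 CPM in WT and 443, 444 and 439.6 CPM in *Aff3ir-ORF2-/-* libraries (0.65, edgeR adjusted p = 4.24e-06).

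Most mitosis genes were lower by less than 1.5-fold. Of 36, 6 were lower and 0 higher past both thresholds, beside 7.32% and 14.3% of all tested genes, and 28 were lower and 1 higher by the adjusted p alone, beside 27.6% and 29.4%, with a median of -0.38. This count moved with single libraries, with 10, 3 and 13 lower when *Aff3ir-ORF2-/-* replicate 1, 2 or 3 was left out. *Incenp*, *Aurkb* and *Top2a* were at -0.80, -0.79 and -0.73, while *Plk1*, *Cdc20* and *Cenpa* did not pass the test, at -0.09, 0.13 and 0.13. The order of the mitosis genes among the *Aff3ir-ORF2-/-* libraries was like that of the replication genes, with replicate 2 the lowest for 35 of 36. In the other replication factor, nucleotide supply, checkpoint, chromatin and mitosis lists, the count of higher genes past 1.5-fold was also 0 at an unadjusted p under 0.05, by DESeq2 and by limma voom. The difference between the medians of the lists was not tested.

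**Figure D4:**
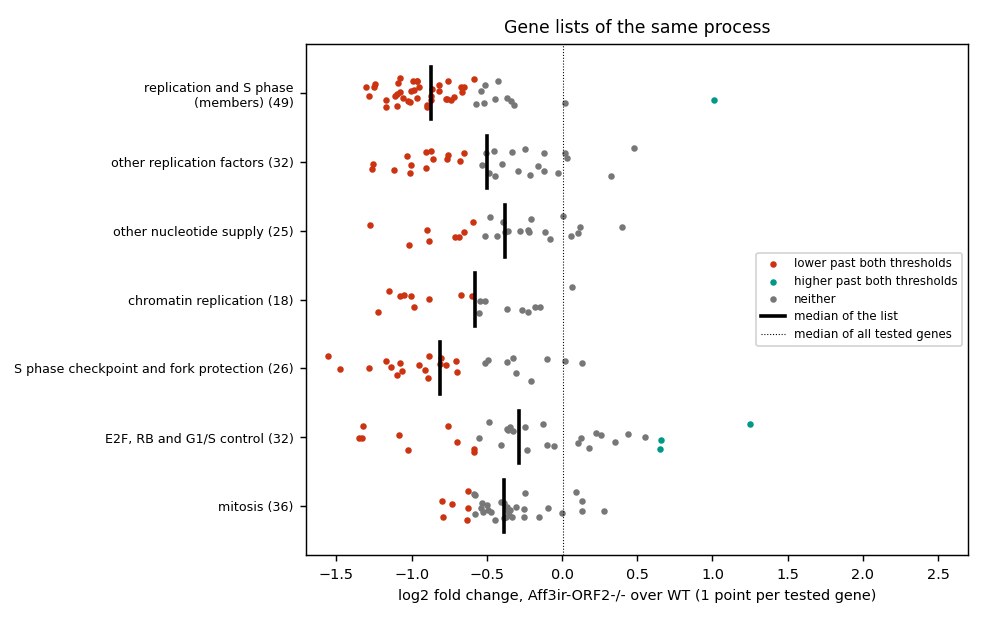
Log2 fold change of each tested gene of the replication and S phase list and of 6 related lists (the histone genes are not drawn), with the number of genes in brackets. Thick bars are the medians, which run from -0.87 for the members to -0.28 for the E2F, RB and G1/S control genes, and the dotted line is the median of all tested genes.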

How the data were processed

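RNA-seq was made from WT and *Aff3ir-ORF2-/-* MEFs with 3 libraries each. The authors filtered reads from a DNBSEQ instrument with SOAPnuke and deposited the estimated counts of each gene, without normalization. The processing notes of the submitters name the build mm8, and the aligner and the counting tool are not given in the sources used here. Between 10.6% and 11.3% of the values were not whole and all were rounded. Genes were filtered with filterByExpr (minimum count 10, total 15; 13075 genes), scaled by TMM and tested with edgeR 4.0.16 (quasi-likelihood test, no covariates) in R 4.3.3, with Benjamini-Hochberg adjustment over all tested genes. Standard errors are the size of the log2 fold change over the square root of F. The functions were tested on simulated counts. DESeq2 1.42.0 and limma 3.58.1 gave alternatives, matplotlib 3.10.9 the figures.

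The members, lists and motifs were chosen with earlier results of these data known. Any member could be named. Library values are given for called members (up to 14 per direction by size) and, per role, the lowest adjusted p and most counts. Those of *Gins3*, *Rrm2* and *Tyms* are given outside this rule. Genes of other lists are those called or lowest in adjusted p, and others, including the ratios, were chosen after their values were seen. Transcript lengths are of the longest GENCODE M21 transcript of a symbol, promoters are from RefSeq (GRCm38.p6). *Aff3ir* is not reported here.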

Additional observations from a re-analysis of the deposited data

How the results depend on the processing

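With other scalings, filters, tests or 1 library left out, 36 to 41 members were lower and 1 higher past both thresholds, and no scaling moved the median of all genes beyond 0.043. The median of the members ran from -0.985 (without *Aff3ir-ORF2-/-* replicate 3) to -0.798 (without replicate 2). *Rpa3* alone among the members changed its side of the adjusted p, at 0.05242 by DESeq2, 0.1018 without WT replicate 2 and 0.07026 without WT replicate 3. With a 2-fold threshold, 16 members were lower, as were 6 other replication factors and 2 other nucleotide supply genes. The counts lower were 8 for checkpoint, 5 for chromatin, 5 for G1/S and 0 for mitosis genes. At that threshold 1 member (*E2f2*), 1 G1/S and 4 histone genes were higher. With no fold threshold, 47 members, 24 other replication factors, 17 other nucleotide supply and 22 checkpoint genes were lower. So were 16 chromatin, 17 G1/S and 28 mitosis genes. In that setting 1 member (*E2f2*), 2 other replication factors, 1 other nucleotide supply, 8 G1/S, 1 mitosis and 7 histone genes were higher. Leaving out 1 library, chromatin genes had medians from -0.683 to -0.491 and mitosis genes from -0.491 to -0.274, with 3 to 13 mitosis genes lower, and 4 (without WT replicate 2) to 7 histone genes were higher (3 with at least 10 counts in every library). The deviations of same-numbered WT and *Aff3ir-ORF2-/-* samples from their group means had correlations of 0.039, 0.042 and 0.015, none over 0.1, so the samples were taken to share only a number. With the replicate block, 38 members were lower and 1 higher, with a median of -0.899. *E2f2* and *Gins3*, both with few counts, had the largest standard errors (0.20 and 0.23), and WT coefficients of variation of 18.11% and 20.92% against a member median of 3.05%.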

Other observations

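The replication-dependent histone genes, whose messengers normally lack a poly(A) tail and are made in S phase, were poorly covered. Of 57 such genes in the table, 11 had enough counts to be tested, so the tested ones do not stand for the group. Of the 11, 7 were higher and 0 lower past both thresholds by edgeR, beside 14.3% and 7.32% of all tested genes. The median log2 fold change was 0.89 (0 were lower also at an unadjusted p under 0.05, by DESeq2 and by limma voom). Some passed the filter only through the *Aff3ir-ORF2-/-* libraries, so this tally is no support for a direction, and 3 were higher among those with at least 10 counts in every library. Near-identical copies may share reads, and *Hist1h2bq* and *Hist1h2br* have the same counts in every library (2, 4 and 4 in WT and 23, 29 and 17 in *Aff3ir-ORF2-/-* libraries). The other higher genes, *H2bc21*, *H2bc6* and *Hist1h4m*, were at 0.77, 1.15 and 1.49. The histone gene with the most counts, *H2bc4*, was at 25.2, 24.7 and 21.5 CPM in WT replicates 1, 2 and 3 and at 41.9, 39.6 and 36.8 CPM in *Aff3ir-ORF2-/-* replicates 1, 2 and 3, with a log2 fold change of 0.73 (SE 0.08, edgeR adjusted p = 9.04e-05). *H2ac18* was at 3.48, 3.53 and 2.63 CPM in WT and 6.09, 6.23 and 6.21 CPM in *Aff3ir-ORF2-/-* libraries (log2 fold change 0.94, edgeR adjusted p = 6.49e-04). *H1f2*, a linker histone, was at 0.24 (edgeR adjusted p = 0.0731). In the same comparison *Chaf1a* and *Chaf1b*, which serve histone placement, were lower past both thresholds. *Slbp*, which serves histone messengers, was lower by the adjusted p alone. A link of these genes to *H2bc4* and *H2ac18* was not tested. Whether the libraries were made with selection for poly(A) is not given in the sources used here, and its part in the histone values was not tested.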
